A study of Homo sapiens with 4 samples.

Results

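The rows described here are those of the small nuclear RNAs (snRNAs), 5.8S ribosomal RNA (rRNA), 7SK, 7SL, RMRP and RPPH1, stable RNAs that end without a poly(A) tail, in 22Rv1 and PC3 prostate cancer cells after 6 h of morusin. Members were all table rows whose Ensembl ID maps to a symbol of these RNAs and whose FPKM (fragments per kilobase of gene, scaled to the mapped fragments of the library) was above 0 in at least 1 library. That gave 300 members of 1698 rows with such symbols, in a table of 60617 rows. Morusin is a prenylated flavone from mulberry root bark. The 22Rv1 cells, a carcinoma line derived from a xenograft, received 75 µM in RPMI medium, and the PC3 cells, a line from a bone metastasis, received 46 µM in F12 medium. All media held fetal bovine serum and antibiotics, and the untreated cells of each line were the controls. The labels do not say whether the controls received a solvent. There was 1 library in each of the 4 groups, so no value has a replicate error and no test was made. The dose and the medium cannot be told apart from the line. The set was selected on a measured value, the ratio of treated over untreated FPKM sums by class in each line, so the changes with morusin are a description of what chose it.

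The spliceosome removes introns with 5 snRNAs, each bound by proteins. U1 pairs with the 5′ splice site, U2 with the branch point, and U4, U5 and U6 join as a preassembled particle, while U11, U12, U4atac and U6atac serve a rare class of introns. RNA polymerase II makes the snRNAs other than U6 and U6atac, and the Integrator complex forms their 3′ ends. RNA polymerase III makes U6, U6atac, 7SK, 7SL, RMRP and RPPH1, and RNA polymerase I makes the precursor from which 5.8S rRNA is cut. 7SK holds the elongation factor P-TEFb inactive, 7SL is the scaffold of the signal recognition particle, and RMRP and RPPH1 are the RNAs of RNase MRP and RNase P. The TruSeq RNA v2 kit selects RNA by its poly(A) tail, so the FPKM of these RNAs records what came through that selection and is not a measure of their amount in the cell.

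The RNAs that the results turn on are shown first, as DNA letters of the GRCh38 reference in GENCODE 29. RNU1-1, the leading U1 row, lies at chr1:16514122-16514285 on the minus strand, outside other annotated genes. Its capitals mark the bases that pair with the 5′ splice site and the Sm site, where the Sm protein ring binds. RNVU1-7 (chr1:148038753-148038916, minus strand) and RNVU1-28 (chr1:144560666-144560829, minus strand) are variants with 1 difference each from RNU1-1, marked by a capital. They are shown because their levels differed widely although each has only 1 difference.
RNU1-1: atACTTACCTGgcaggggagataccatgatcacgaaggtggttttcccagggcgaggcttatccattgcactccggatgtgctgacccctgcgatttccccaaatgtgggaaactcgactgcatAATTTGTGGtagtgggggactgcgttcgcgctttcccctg
RNVU1-7: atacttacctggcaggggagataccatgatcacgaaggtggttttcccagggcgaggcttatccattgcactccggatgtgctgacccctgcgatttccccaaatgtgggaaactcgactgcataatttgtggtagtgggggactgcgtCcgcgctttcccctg
RNVU1-28: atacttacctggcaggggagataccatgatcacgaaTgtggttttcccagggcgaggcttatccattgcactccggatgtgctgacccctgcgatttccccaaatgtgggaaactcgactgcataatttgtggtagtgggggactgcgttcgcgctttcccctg
Counted from 1 at the 5′ end of RNU1-1, the difference of RNVU1-7 is T150C and that of RNVU1-28 is G37T.

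RNA5-8SN2 (chr21:8212572-8212724, plus strand, within an intron of a long noncoding RNA) carries the 153 bases that all 4 of the 5.8S members share. RN7SK (chr6:52995621-52995948, plus strand) is the 7SK gene, of which chr6:52995621-52995920 is printed. It is shown because it was higher with morusin in both lines.
RNA5-8SN2: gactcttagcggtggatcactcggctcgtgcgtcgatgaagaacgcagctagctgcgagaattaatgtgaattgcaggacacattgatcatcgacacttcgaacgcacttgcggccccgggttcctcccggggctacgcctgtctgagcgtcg
RN7SK: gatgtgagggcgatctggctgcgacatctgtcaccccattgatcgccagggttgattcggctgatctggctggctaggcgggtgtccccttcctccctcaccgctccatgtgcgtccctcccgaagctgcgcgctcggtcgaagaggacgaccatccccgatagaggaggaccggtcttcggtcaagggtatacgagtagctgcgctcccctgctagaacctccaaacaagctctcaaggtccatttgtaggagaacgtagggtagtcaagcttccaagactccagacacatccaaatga

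The sum over all members was 3037 FPKM in morusin-treated 22Rv1, against 64.0 FPKM in untreated 22Rv1. In PC3 it was 252.6 FPKM with morusin and 66.9 FPKM without. The treated over untreated ratio of the sums was thus 47.5 in 22Rv1 and 3.78 in PC3. Members made up 0.743% of all FPKM in treated 22Rv1 and 0.0180% in untreated 22Rv1, and 0.0704% in treated PC3 and 0.0199% in untreated PC3. The sum of FPKM over all rows was 408628 in treated and 356195 in untreated 22Rv1, and 358823 in treated and 335458 in untreated PC3. In bulk RNA, fewer cells with an RNA and less of it per cell cannot be told apart. Depth is not in the table. Estimated from the spacing of low values, in M (mega) of read pairs, it was 19.1 in treated and 23.4 in untreated 22Rv1, and 28.6 in treated and 40.6 in untreated PC3. These depths are rough. The 95% intervals given with ratios are exact binomial intervals on the read pairs estimated from them, cover counting error only and say nothing of the spread between cultures. For all members the interval was 42.0 to 53.8 in 22Rv1 and 3.42 to 4.18 in PC3. The labels of the lines held: KLK4, a prostate kallikrein, had 429 and 288 FPKM in treated and untreated 22Rv1 and at most 0.0173 FPKM in PC3. Of 10 markers of leukocytes, fibroblasts and endothelium, the highest was COL1A1, a fibroblast collagen, at 3.01 FPKM in untreated PC3.

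Few of the members carried the sums. Only 35 of the 300 reached 1 FPKM in any library and 14 reached 50 FPKM, while 265 stayed below 1 FPKM everywhere. By name 255 were pseudogenes, among them 192 of the 196 U6 members. In the annotation 198 members lay in an intron of another gene, 37 overlapped an exon of another annotated gene, 64 lay outside any and 1 was not in the annotation. The 37 include RN7SK and RMRP, which overlap only a second Ensembl ID of the same RNA. Rows above 0 numbered 178 in treated and 127 in untreated 22Rv1, and 145 in treated and 175 in untreated PC3. Among the 1398 rows with these symbols that were listed at 0 in every library, 17 are not named as pseudogenes, and RNU4-2, RNU5B-1 and RNU12, main genes of U4, U5 and U12, are among them.

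Changes of single rows were taken as log2 of FPKM + 1, treated over untreated, over rows with 1 FPKM or more in a library of the line. This scale understates the change of low rows. In 22Rv1, 34 members passed that filter and 20 were at least 2-fold higher with morusin, where 3.48% of all 13361 rows were. None was at least 2-fold lower, where 1.02% of all rows were. The median change was 1.54 over these members and -0.01 over all rows. In PC3, 20 members passed, 12 were at least 2-fold higher, where 1.24% of 12907 rows were, and none was at least 2-fold lower, where 2.64% of rows were. The median change was 1.11 over these members and -0.05 over all rows. A member that is low without morusin passes the filter only if it is high with it, so these counts describe the rows that passed and not all members. The calls also hold copies identical in sequence. They include the 4 rows of 5.8S in both lines. They also include the 8 U1 rows with the RNU1-1 sequence in 22Rv1, and some of those in PC3. Such copies are not separate measurements, so the counts and medians of members are not over independent rows. Just inside the 2-fold limit in 22Rv1 were RNVU1-27 at 1.04 and RNU1-103P at 1.05, and just outside were RNU2-1 at 0.94 and RPPH1 at 0.89. In PC3, RNVU1-29 and RNU1-27P lay just inside at 1.10 each, and RNU1-28P at 0.99 and RNVU1-18 at 0.95 lay just outside. All of these PC3 rows have the RNU1-1 sequence, so the limit does not part different RNAs there.

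**Figure D1:**
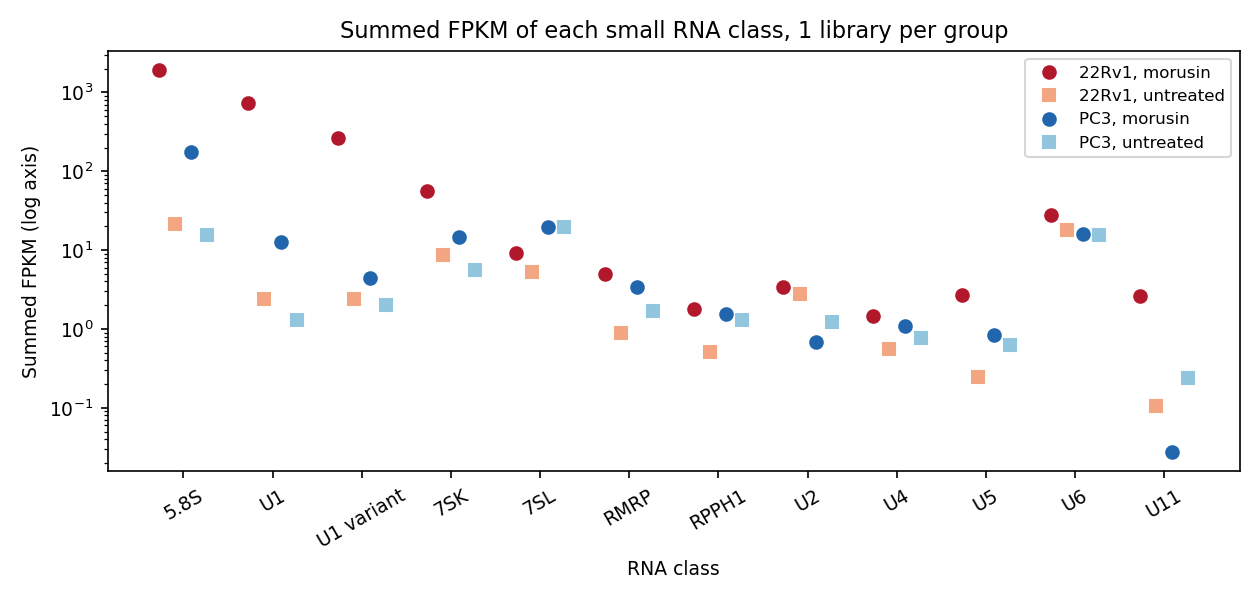
Summed FPKM of each class (log axis) in the 4 libraries, with morusin as circles and untreated as squares, 22Rv1 in red tones and PC3 in blue tones. The 5.8S sum stood at 1932 FPKM in treated 22Rv1 and 21.4 FPKM in untreated 22Rv1, while the 7SL sums differed more between lines than with morusin.

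U1 had the widest ratio of any class in 22Rv1. The 20 rows of the U1 class, with symbols starting RNU1-, summed to 728 FPKM in treated and 2.43 FPKM in untreated 22Rv1, a ratio of 300 (157 to 720). In PC3 they summed to 12.7 FPKM with morusin and 1.29 FPKM without, a ratio of 9.81 (4.80 to 24.5). The 19 rows named as U1 variants summed to 267 FPKM in treated and 2.42 FPKM in untreated 22Rv1, a ratio of 110 (59.4 to 249). In PC3 their sums were 4.48 FPKM with morusin and 2.01 FPKM without, a ratio of 2.22 (1.10 to 4.99).

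Grouping the rows by sequence instead of by name gave a sharper division. RNU1-1, RNU1-2, RNU1-3, RNU1-4, RNU1-27P, RNU1-28P, RNVU1-18 and RNVU1-29, although 2 are named pseudogenes and 2 are named variants, share the 164 bases printed above for RNU1-1. These 8 rows held 889 FPKM in treated and 0.733 FPKM in untreated 22Rv1, and 13.4 FPKM in treated and 0.923 FPKM in untreated PC3. Each lay between 79.95 and 161 FPKM in treated 22Rv1, between 0 and 0.207 FPKM in untreated 22Rv1, between 1.07 and 2.64 FPKM in treated PC3 and between 0.0667 and 0.173 FPKM in untreated PC3. The 8 rows are identical in sequence, so their values are not separate measurements. The untreated sums rest on few reads, an estimated 2.82 pairs in 22Rv1 and 6.14 in PC3, so the ratios of 1213 (389 to 5526) in 22Rv1 and 14.6 (6.48 to 42.1) in PC3 are loose. The sources used here do not say how read pairs were divided among identical copies, so the level of a single copy is uncertain and the sum is the safer value. RNU1-2 and RNU1-4 also lie within CROCC, a gene of the ciliary rootlet, which had 13.3 and 7.22 FPKM in treated and untreated 22Rv1 and 2.27 and 2.67 FPKM in treated and untreated PC3.

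RNU1-1 itself had 161 FPKM in treated and 0.0321 FPKM in untreated 22Rv1, and 2.64 FPKM in treated and 0.115 FPKM in untreated PC3. RNVU1-7, with T150C, had 94.1 FPKM in treated and 0.142 FPKM in untreated 22Rv1, and 1.30 FPKM in treated and 0.0553 FPKM in untreated PC3. That row thus lay within the range of the identical copies in treated 22Rv1. What part of the RNVU1-7 level comes from read pairs of those copies was not tested, so the level of this row is uncertain too. RNVU1-28, with G37T, had 2.03 FPKM in treated 22Rv1, an estimated 6.36 pairs, and was listed at 0 in the 3 other libraries. The 10 rows of the same length with 2 or more substitutions stayed at or below 0.537 FPKM in every library, RNVU1-31 with A49T and C116T among them at 0.502 FPKM in treated 22Rv1. Without the 8 identical rows, the other 31 U1 and U1 variant rows summed to 106 FPKM in treated and 4.11 FPKM in untreated 22Rv1. That was a ratio of 25.7 (15.1 to 45.5), and the ratio in PC3 was 1.56 (0.700 to 3.19). RNVU1-7 held most of that treated 22Rv1 sum. With that row also set aside for its level, the remaining 30 rows summed to 11.8 FPKM in treated and 3.97 FPKM in untreated 22Rv1. Their ratio of 2.96 (1.54 to 5.98) thus leaves out a row chosen on the values described. In PC3 these 30 rows held 2.43 FPKM with morusin and 2.33 FPKM without, a ratio of 1.04 (0.417 to 2.47).

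The 9 U1 rows that reached 50 FPKM all hold both ACTTACCTG, the bases that pair with the 5′ splice site, and AATTTGTGG, the Sm site, read on the RNA strand. Of the 29 other U1 rows with a sequence, 13 hold the first and 14 hold the second. Of the 9 rows, 8 share the RNU1-1 sequence and RNVU1-7 differs from it only by T150C, outside both motifs. The 9 matches were therefore fixed by that sequence and are not separate observations. The motif match describes the letters alone.

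**Figure D2:**
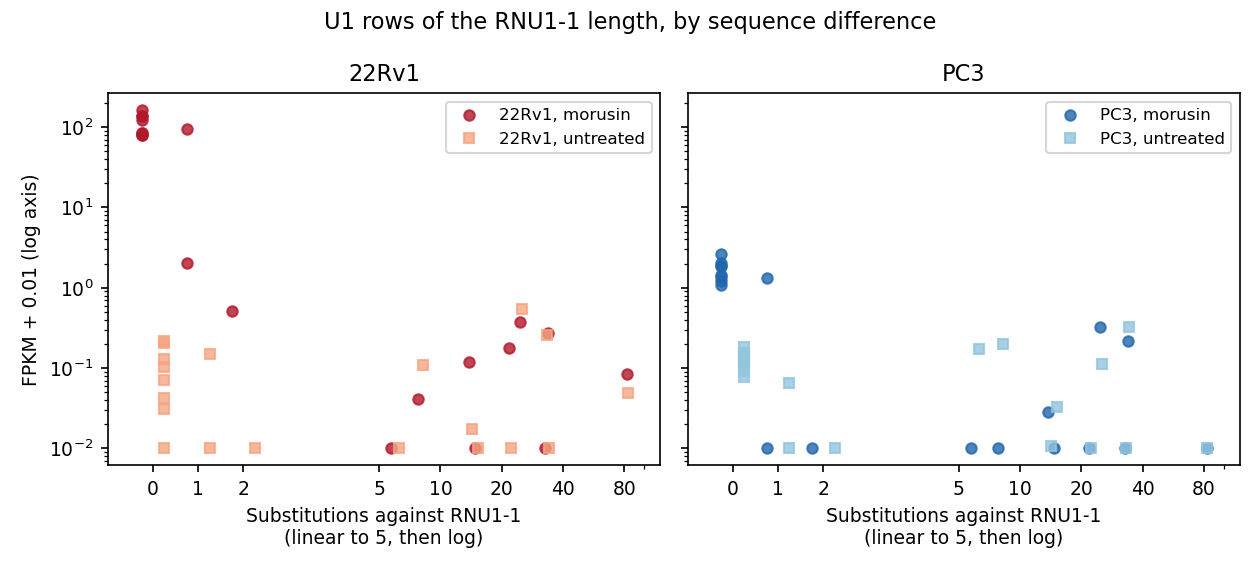
FPKM + 0.01 (log axis) of the U1 and U1 variant rows that have the length of RNU1-1, against the number of substitutions from it, for 22Rv1 on the left and PC3 on the right. The 8 rows without a substitution and RNVU1-7 stand above the rest in treated 22Rv1 and treated PC3, and rows with 2 or more substitutions stay at or below 0.537 FPKM.

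The other major spliceosomal RNAs were near the floor in all libraries, and no class sum among U2, U4 and U5 exceeded 3.37 FPKM. U2 summed to 3.37 FPKM in treated and 2.77 FPKM in untreated 22Rv1, a ratio of 1.21 (0.507 to 3.14), and to 0.680 FPKM in treated and 1.22 FPKM in untreated PC3, a ratio of 0.558 (0.136 to 2.06). RNU2-1, the functional U2 gene, had 1.36 FPKM in treated and 0.230 FPKM in untreated 22Rv1, and 0.181 FPKM in treated and 0.209 FPKM in untreated PC3. U4 summed to 1.47 and 0.554 FPKM in treated and untreated 22Rv1 and to 1.08 and 0.770 FPKM in treated and untreated PC3. Of the U5 rows, RNU5D-1 had 2.005 FPKM in treated 22Rv1 and was listed at 0 in untreated 22Rv1, while RNU5A-1 had 0.178 FPKM in treated and 0.243 FPKM in untreated 22Rv1. The U4 and U5 sums rest on at most 6 estimated pairs per library, so a change of these sums could not be resolved at this depth. The U5 ratio in 22Rv1 was 11.2 (0.895 to 339). RNU5D-1 was among the rows called 2-fold higher in 22Rv1, on an estimated 4.44 pairs in the treated library.

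U6 has the most rows. Its 196 members held 27.7 FPKM in treated and 17.8 FPKM in untreated 22Rv1, a ratio of 1.55 (1.02 to 2.35), and 15.8 FPKM in treated and 15.7 FPKM in untreated PC3, a ratio of 1.01 (0.683 to 1.49). Of these members 145 lay in introns, 125 of them on the strand of the surrounding gene. The intronic rows held 18.6 FPKM in treated and 10.1 FPKM in untreated 22Rv1, and 12.3 FPKM in treated and 10.1 FPKM in untreated PC3. RNU6-26P, a U6 pseudogene in an intron of DCBLD2, had 0.0849 and 0.0847 FPKM in treated and untreated 22Rv1 but 3.20 and 1.28 FPKM in treated and untreated PC3. DCBLD2, a membrane protein gene, had 5.20 and 7.28 FPKM in treated and untreated 22Rv1 and 104 and 128 FPKM in treated and untreated PC3, so both the pseudogene and the gene around it were higher in PC3 than in 22Rv1. The 7 members with the exact sequence of RNU6-1 summed to 1.68 FPKM in treated 22Rv1 and were all listed at 0 in untreated 22Rv1. In PC3 these 7 summed to 0.738 FPKM with morusin and 1.47 FPKM without. RNU6-8, with 1 substitution from RNU6-1, had the highest level of any U6 row in both untreated libraries, at 2.37 FPKM in 22Rv1 and 1.33 FPKM in PC3, against 1.58 FPKM in treated 22Rv1 and 1.35 FPKM in treated PC3.

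Among the minor spliceosomal RNAs, RNU11, which does for the rare introns what U1 does for the common ones, had 2.11 FPKM in treated and 0.107 FPKM in untreated 22Rv1. In PC3 it had 0.0273 FPKM with morusin and 0.0405 FPKM without. These RNU11 values rest on few reads, an estimated 5.41 pairs in treated and 0.335 in untreated 22Rv1, and 0.105 in treated and 0.220 in untreated PC3. A long noncoding row at the same place had at most 0.278 FPKM in any library. RNU4ATAC was listed at 0 in both 22Rv1 libraries and had 0.413 FPKM in treated and 0.280 FPKM in untreated PC3. RNU6ATAC was listed at 0 in treated 22Rv1 with 0.290 FPKM in untreated 22Rv1, and had 0.205 FPKM in treated PC3 with 0 in untreated PC3. Of U12, RNU12-2P, a pseudogene, was the only member, at 0.0514 FPKM in untreated PC3.

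The 5.8S rows held most of the summed FPKM in treated cells. The 4 rows summed to 1932 FPKM in treated and 21.4 FPKM in untreated 22Rv1, a ratio of 90.5 (71.8 to 114). They summed to 177 FPKM in treated and 15.6 FPKM in untreated PC3, a ratio of 11.3 (9.15 to 14.1). Their share of the member sum was 63.6% in treated and 33.4% in untreated 22Rv1, and 69.9% in treated and 23.4% in untreated PC3.

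RNA5-8SN2 had 577 FPKM in treated and 6.66 FPKM in untreated 22Rv1, and 52.4 FPKM in treated and 4.72 FPKM in untreated PC3. RNA5-8SN1, the lowest of the 4 rows, had 382 and 4.16 FPKM in treated and untreated 22Rv1, and 35.9 and 3.17 FPKM in treated and untreated PC3. The 4 rows kept nearly the same proportions in every library, with RNA5-8SN2 at 29.7% to 31.2% of their sum and RNA5-8SN1 at 19.5% to 20.3%. The ratio of treated to untreated was 86.7 to 92.7 over the 4 rows in 22Rv1 and 10.98 to 11.8 in PC3. Since the rows are identical in sequence, they are not separate measurements.

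Other rows of the same ribosomal DNA (rDNA) repeat, which are no members, were also higher with morusin. MIR3648-1, annotated at -4099 bases from the start of RNA5-8SN2, where the 5′ external transcribed spacer of the rRNA precursor lies, had 359 FPKM in treated and 1.60 FPKM in untreated 22Rv1. In PC3 it had 13.9 FPKM with morusin and 1.27 FPKM without. Long noncoding RNAs annotated on the opposite strand of the repeats, 4 rows in all, summed to 3.42 FPKM in treated and 0.165 FPKM in untreated 22Rv1, and to 0.460 FPKM in treated and 0.185 FPKM in untreated PC3. The strand was not given for the counting, so reads of the 2 strands cannot be told apart.

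**Figure D3:**
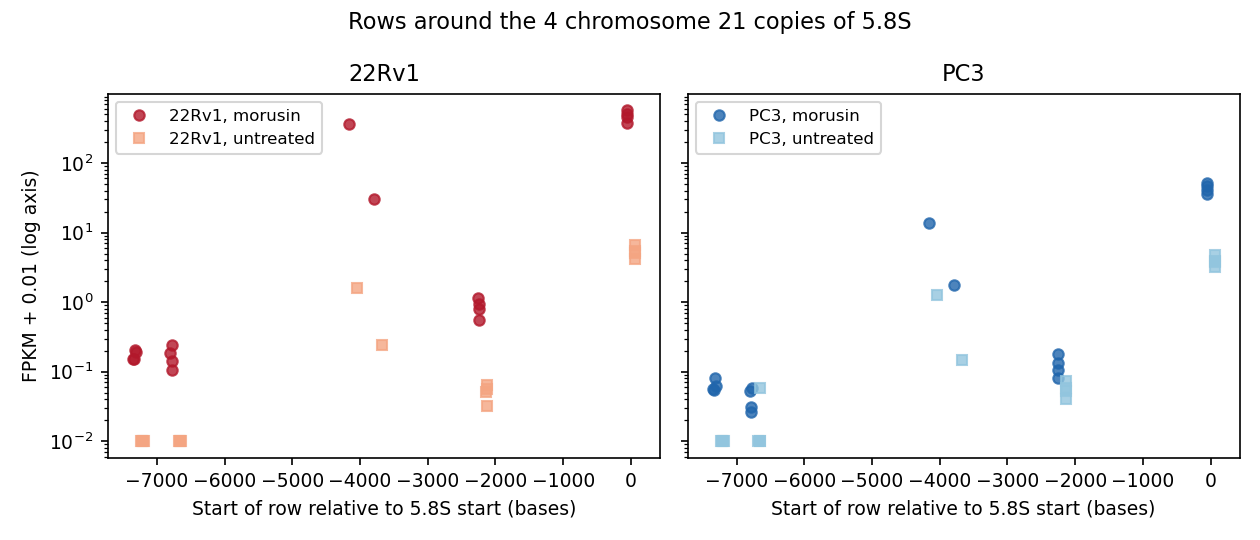
FPKM + 0.01 (log axis) of the annotated rows in the 8000 bases before each of the 4 chromosome 21 copies of 5.8S rRNA, by the start of the row relative to the 5.8S start, for 22Rv1 on the left and PC3 on the right. Rows at the 5.8S start and at the MIR3648-1 position lie highest, at 577 and 359 FPKM in treated 22Rv1.

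7SK was higher with morusin in both lines, by more in 22Rv1 than in PC3. RN7SK had 55.4 FPKM in treated and 8.61 FPKM in untreated 22Rv1, a ratio of 6.44 (4.94 to 8.52), and 14.6 FPKM in treated and 5.54 FPKM in untreated PC3, a ratio of 2.64 (1.97 to 3.53). A second Ensembl ID at the place of RN7SK was listed at 0 in all 4 libraries, and so were those at RMRP and RPPH1. RMRP had 5.04 FPKM in treated and 0.899 FPKM in untreated 22Rv1, a ratio of 5.60 (2.05 to 15.2), and 3.44 FPKM in treated and 1.71 FPKM in untreated PC3, a ratio of 2.01 (1.08 to 3.97). RPPH1 had 1.81 FPKM in treated and 0.517 FPKM in untreated 22Rv1, a ratio of 3.49 (0.999 to 14.5), and 1.54 FPKM in treated and 1.29 FPKM in untreated PC3, a ratio of 1.19 (0.582 to 2.67). The intervals for RPPH1 hold 1 in both lines.

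7SL differed little with morusin in PC3 and was somewhat higher with it in 22Rv1. RN7SL1 had 5.65 FPKM in treated and 3.43 FPKM in untreated 22Rv1, and 10.6 FPKM in treated and 11.3 FPKM in untreated PC3. RN7SL2 had 3.45 FPKM in treated and 1.83 FPKM in untreated 22Rv1, and 9.15 FPKM in treated and 8.53 FPKM in untreated PC3. The ratio of their sums was 1.73 (1.11 to 2.70) in 22Rv1 and 0.994 (0.812 to 1.22) in PC3. RN7SL1 overlaps RPS29, a ribosomal protein gene on the opposite strand, which had 231 and 85.2 FPKM in treated and untreated 22Rv1 and 114 and 77.5 FPKM in treated and untreated PC3. What part of the RN7SL1 level comes from reads of that gene was not tested.

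**Figure D4:**
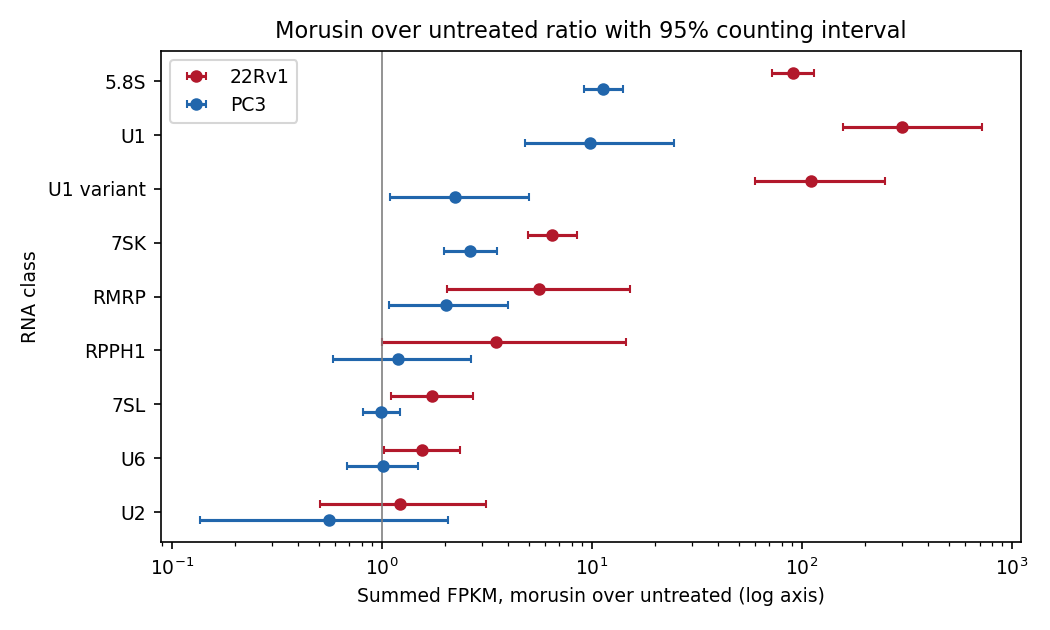
Ratio of summed FPKM, morusin over untreated (log axis), for 9 classes, with bars for the 95% counting interval, 22Rv1 in red above PC3 in blue. The 5.8S ratio was 90.5 in 22Rv1 and 11.3 in PC3, and the PC3 intervals of 7SL, U6, U2 and RPPH1 hold 1.

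After the 5.8S rows, the 8 identical U1 rows and RNVU1-7 were set aside, the 287 other members summed to 122 FPKM in treated and 41.7 FPKM in untreated 22Rv1, a ratio of 2.93 (2.47 to 3.47). In PC3 they summed to 61.3 FPKM with morusin and 50.3 FPKM without, a ratio of 1.22 (1.06 to 1.39). The rows set aside were chosen on their levels, which lowers the ratio that remains.

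Between the untreated lines the members differed little in sum, 64.0 FPKM in 22Rv1 against 66.9 FPKM in PC3, a ratio of 0.956 (0.825 to 1.11). Of 17 members past the filter, 4 had 2-fold or more the PC3 value in 22Rv1 and 3 had 2-fold or more the 22Rv1 value in PC3, where 19.8% of 14363 rows were higher and 19.2% lower, so the members' shares lay near the background. 7SL was lower in untreated 22Rv1, with a ratio to PC3 of 0.265 (0.183 to 0.377). 7SK was higher in untreated 22Rv1, with a ratio of 1.55 (1.09 to 2.18).

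Rows outside the rule were read beside the members. Of 319 other rows of at most 350 bases in 22Rv1, 28.2% (90 rows) were at least 2-fold higher with morusin and 7.21% (23 rows) lower. Their median change was 0.61. In PC3, 13.7% (28 rows) of 204 such rows were higher and 10.8% (22 rows) lower, with a median of 0.20. Over all rows in PC3, 1.24% were higher and 2.64% lower. Short rows of other kinds were thus more often higher than lower in 22Rv1, while in PC3 the 2 counts were close and both shares lay above those of all rows. The part of row length in the members' values was not tested. Small nucleolar RNAs named SNORD, guides of rRNA methylation, summed to 138 FPKM in treated and 63.9 FPKM in untreated 22Rv1, a ratio of 2.16, and to 96.8 FPKM in treated and 50.4 FPKM in untreated PC3, a ratio of 1.92. Those named SNORA, guides of pseudouridine formation, had ratios of 1.94 in 22Rv1 and 1.19 in PC3, and the SCARNA, their Cajal body relatives, 2.40 and 1.33. The RN7SL copies other than the 7SL members had ratios of 2.12 in 22Rv1 and 0.935 in PC3. SNORD14E lies within HSPA8, which encodes a heat shock protein of the HSP70 family, and had 21.6 FPKM in treated and 0.767 FPKM in untreated 22Rv1, and 25.6 FPKM in treated and 0.501 FPKM in untreated PC3. That single row is part of the SNORD sums above and raised both SNORD ratios, more so in PC3.

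Few mRNAs of the proteins that make, carry or work with these RNAs passed 2-fold. Of 157 such genes, all past the filter, 3 passed 2-fold upward and 2 passed it downward with morusin in 22Rv1, with a median of 0.11. In PC3 none was higher and 2 were lower, with a median of 0.08. Over all rows, 3.48% were higher and 1.02% lower in 22Rv1, and 1.24% higher and 2.64% lower in PC3. The median length of the genes above 0 was 3116 bases in 22Rv1 and 3167 bases in PC3, and that of the genes below 0 was 6329 bases in 22Rv1 and 5836 bases in PC3. The part of gene length in these changes was not tested.

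Of the 8 Sm proteins, which form the ring on the Sm site, all were above 0 in 22Rv1 and 7 were in PC3, with medians of 0.45 and 0.15. SNRPD2 had 171 FPKM in treated and 84.8 FPKM in untreated 22Rv1, and 60.3 FPKM in treated and 48.7 FPKM in untreated PC3. Of 15 proteins of the U1 and U2 particles none passed 2-fold in either line, with medians of 0.32 in 22Rv1 and 0.27 in PC3. SNRNP70, the U1 70K protein, had 191 and 116 FPKM in treated and untreated 22Rv1, and 108 and 82.8 FPKM in treated and untreated PC3. Of 20 tri-snRNP and LSm proteins only LSM7, a subunit of the ring that binds U6, passed 2-fold, at 128 FPKM in treated and 61.4 FPKM in untreated 22Rv1. The 9 minor spliceosome proteins had medians of 0.43 in 22Rv1 and 0.07 in PC3, with none past 2-fold.

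Of 24 genes of snRNA transcription and 3′ end formation, with medians of 0.00 in 22Rv1 and 0.12 in PC3, INTS1, the largest Integrator subunit, was the only one past 2-fold, at 12.8 FPKM in treated and 32.3 FPKM in untreated PC3. In 22Rv1 it had 53.4 FPKM with morusin and 52.6 FPKM without. The 14 genes of snRNA export, assembly and trimming had medians of -0.20 in 22Rv1 and -0.02 in PC3, and GEMIN4, of the SMN complex that loads the Sm ring, had 10.2 and 20.2 FPKM in treated and untreated 22Rv1. Of 23 genes of RNA polymerase III and its factors, with medians of -0.10 and -0.09 in 22Rv1 and PC3, BDP1, a subunit of its initiation factor TFIIIB, was the only one past 2-fold. BDP1 had 11.6 FPKM in treated and 24.7 FPKM in untreated 22Rv1, and 8.69 FPKM in treated and 13.5 FPKM in untreated PC3.

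The 11 genes of the 7SK particle and P-TEFb had the lowest medians of the lists, -0.44 in 22Rv1 and -0.20 in PC3. CCNT1, the cyclin subunit of P-TEFb, had 8.42 FPKM in treated and 18.6 FPKM in untreated 22Rv1, and 5.84 FPKM in treated and 12.8 FPKM in untreated PC3. That gene was thus more than 2-fold lower with morusin in both lines, while RN7SK was more than 2-fold higher. HEXIM1, the inhibitor that 7SK brings to P-TEFb, had 15.3 and 21.1 FPKM in treated and untreated 22Rv1, and 32.4 and 55.6 FPKM in treated and untreated PC3. The 8 proteins of the signal recognition particle and its receptor had medians of -0.08 in 22Rv1 and 0.11 in PC3. The 10 RNase P and MRP proteins had medians of 0.32 and 0.30, with RPP21 past 2-fold at 46.8 FPKM in treated and 21.7 FPKM in untreated 22Rv1. The 15 genes of the RNA exosome and nuclear decay that were found had medians of 0.12 and 0.03, with none past 2-fold.

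**Figure D5:**
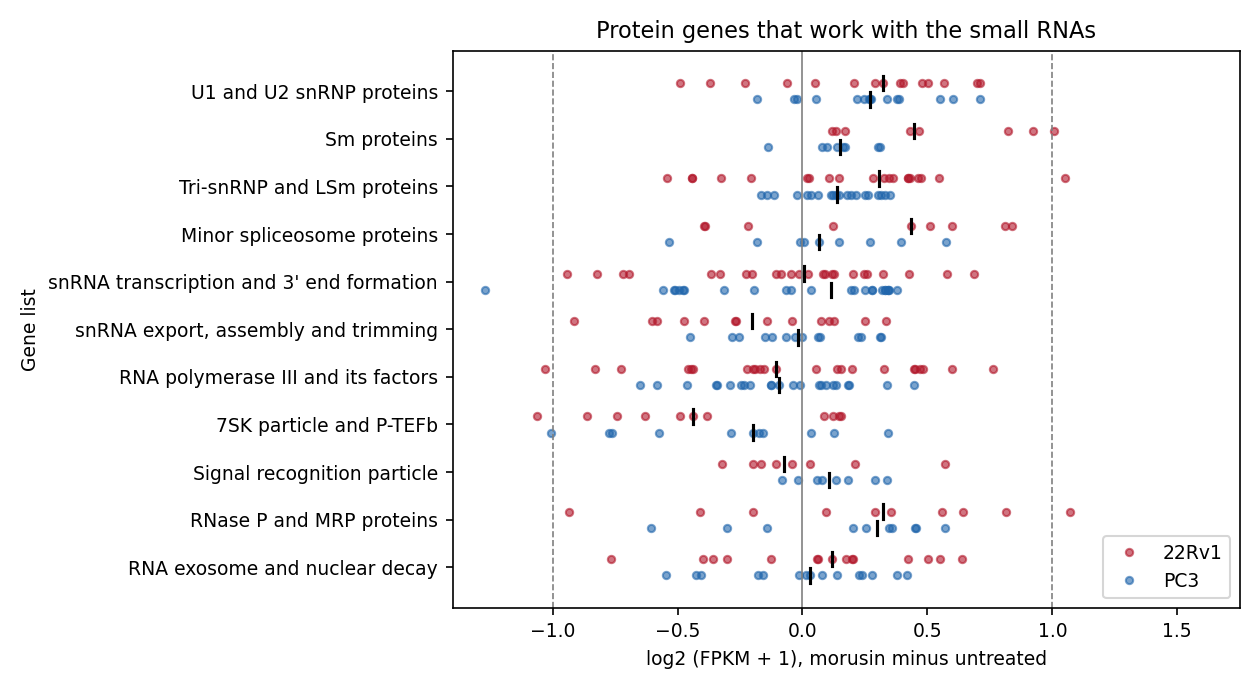
Change of each protein gene with morusin, as log2 (FPKM + 1) treated minus untreated, by list, with 22Rv1 in red above PC3 in blue, a black bar at each list's median and dashed lines at 2-fold. The 7SK particle and P-TEFb list has the lowest medians, -0.44 in 22Rv1 and -0.20 in PC3, and most genes lie within the dashed lines.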

How the data were processed

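Total RNA of the 4 cultures was extracted with a column kit and sequenced as paired reads of 150 bases on a HiSeq2500, per the labels' protocols. The submitters' processing notes name Trimmomatic, HISAT2, StringTie and GRCh38, without versions, annotation release or strand setting, which the other sources used here do not give either. The authors deposited 1 table of FPKM for 60617 Ensembl IDs, and the 4 columns were matched to the labels by name. Symbols came from a gene name table, which had an entry for 60261 IDs. Positions, lengths and sequences came from GENCODE 29, in which 299 of the 300 members have a length. No count test suits FPKM, and with 1 library per group no p-value is given. FPKM were summed by class. Changes were log2 of FPKM + 1 over rows with 1 FPKM or more, called at 2-fold. Depth came from FPKM times length in single-exon genes of 600 to 5000 bases, where the step that best explained low values, with the step below it at 0.5 pairs, was taken as 1 read pair (tolerance 1.5%). At that step lay 57 to 85 of 1184 to 1545 low values. If that lower step were 1 pair, depths would double and the intervals would narrow. Fold calls, intervals and the depth step were tried on simulated data. The simulated intervals did not use mean counts as low as those of the untreated U1 rows, and copies of identical sequence were not simulated. Members named are the 4 highest rows of each class and the single-gene classes, and in each list of protein genes up to 4 genes with 5 FPKM and the widest changes, not all of which are printed. RNU6-26P's surrounding gene, RPS29, SNORD14E and the rDNA rows were named after their values were seen. Members and lists were chosen with earlier results of these data known. Promoters were not analysed here. Python 3.11.15, pandas 2.3.3, numpy 2.4.6, scipy 1.17.1 and matplotlib 3.10.9 were used. Alternatives were other scalings, pseudocounts of 0.1 and 5, other filters, and other sets of rows.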

Additional observations from a re-analysis of the deposited data

Results flagged for a closer look

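Some rows that carry the same RNAs or the same rDNA repeat fall outside the symbols used, and 3 sets of them are given here. The 4 rows annotated as 5.8S on unplaced scaffolds, which have no symbol, summed to 1069 FPKM in treated and 11.8 FPKM in untreated 22Rv1, and to 99.9 FPKM in treated and 9.11 FPKM in untreated PC3. A U1 row without a symbol had 81.4 FPKM in treated 22Rv1 and was listed at 0 in untreated 22Rv1, and had 1.23 FPKM in treated and 0.0982 FPKM in untreated PC3. The 2 MIR3648 rows of the rDNA repeat summed to 759 FPKM in treated and 3.40 FPKM in untreated 22Rv1, and to 25.6 FPKM in treated and 2.23 FPKM in untreated PC3. These 3 sets were picked out because signal in rows that the sums leave out lay above the control library of the line. Low U1 rows outside the symbols also went the other way, 1 at 0 in treated and 0.0543 FPKM in untreated 22Rv1 and 1 at 0 in treated and 0.110 FPKM in untreated PC3.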

How the results depend on the processing

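The summed ratio stayed above 1 in both lines under all alternatives run. In 22Rv1, 47.5 became 41.4 with equal FPKM sums, 40.4 with equal sums over protein-coding genes, 66.4 without rows named as pseudogenes and 71.6 without rows inside another annotated gene. It became 55.3 with the 5 copies that lack a symbol and 26.0 without 5.8S, the last 2 being choices made after seeing the data. In PC3, 3.78 became 3.22 without the highest row, 4.67 without pseudogenes, 6.51 without rows inside genes, 3.20 with FPKM times length, 4.65 with the 5 copies and 1.48 without 5.8S. The count at least 2-fold higher went down to 10 in 22Rv1 without rows inside genes, which drops the calls of RNA5-8SN2, RNA5-8SN3, RNU1-2, RNU1-3, RNU1-4, RNVU1-29, RNU1-103P, RNU11, RN7SK and RMRP. RN7SK and RMRP drop out through a second Ensembl ID of the same RNA and do not lie inside a different gene. In PC3 the 12 became 4 with a pseudocount of 5, and 5 both at a 5 FPKM filter and without rows inside genes. Between untreated lines the ratio became 1.09 without the highest row and 1.35 without rows inside genes, and the 4 higher became 0 with a pseudocount of 5, at 5 FPKM or without pseudogenes, 1 with the median set to 0 and 2 without rows inside genes. Counted once for each class, line and alternative, 4 class ratios moved beyond their counting interval and 149 did not. U1 in 22Rv1 was 1263 without pseudogenes and 2844 without rows inside genes, U2 in 22Rv1 was 5.90 without pseudogenes, and U6 in PC3 was 0.623 without rows inside genes. For classes with few read pairs the intervals are so wide that staying within them says little. Without the highest row, U5 in 22Rv1 went from 11.2 to 2.91 and U6atac in 22Rv1 from 1.36 to 6.37. U11 in PC3 likewise went from 0.113 to 0.673, all within their intervals. Class ratios near 1 changed sides. U2 in 22Rv1 was 0.792 without its highest row, U4atac in 22Rv1 was 0.946 and 0.923 with equal sums over all rows and over protein-coding genes, and U4atac in PC3 was 1.48 without pseudogenes. In PC3, 7SL was 1.03 with the median set to 0 and 1.07 without its highest row, and U6 was 0.943 and 0.920 with the equal sums, 0.877 without its highest row and 0.777 without pseudogenes. The intervals of these ratios as reported held 1. The causes were not tested. Equal sums moved the median change of all rows in 22Rv1 to -0.18 and, over protein-coding genes, to -0.21. No paired analysis was possible because each group holds 1 library. Depth limits U2, U4, U5, U11 and U12, whose sums rest on few read pairs.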
